A study of Mus musculus with 17 samples.

Results

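Alpha, delta and pancreatic polypeptide (PP) cells of streptozotocin-treated mice were compared between libraries made without and with insulin implants. All cells were RFP+ cells sorted from the pancreas of Ngn3-Cre; Rosa-RFP mice, in which Cre under Ngn3 control marks the endocrine lineage. The mice were males that had received a single intraperitoneal dose of 200 mg/kg STZ at 2 months of age, after a fast. STZ_M2_NoIns holds 2 libraries taken at month 2 from mice without implants, and STZ_M2 is 1 library taken at month 2 from mice with implants. STZ_D42 (day 42) and STZ_M5 (month 5) are 1 further library each from implanted mice and were set beside it. A cell was taken as alpha, delta or PP when Gcg, Sst or Ppy, respectively, reached 3000 on the deposited scale of UMIs per 100000 and was at least 3 times each of the other hormones among Ins2, Gcg, Sst and Ppy, with Prss2, an acinar protease, under 1500. The rule found 254 such cells among the 701 cells of these 5 libraries and the 2999 cells of the series. They were 153 alpha, 41 delta and 60 PP cells, of which 57, 5 and 13, respectively, came from the libraries without implants.

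Alpha cells secrete glucagon when blood glucose is low, delta cells secrete somatostatin, which restrains their neighbours, and PP cells secrete pancreatic polypeptide. STZ enters beta cells through the glucose transporter Slc2a2 and kills them, so that the other islet cells are left with little local insulin and, unless insulin is replaced, with high blood glucose. Immediate early genes such as Fos, Fosb, Junb, Egr1, Ier2 and Dusp1 are transcribed within minutes of a rise in calcium, cAMP or growth factor signalling, and heat shock genes such as Hsph1 and Hspa1a encode chaperones that are induced by unfolded protein.

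The 5 libraries held 4569141 to 25182745 UMIs in 51 to 240 cells, with library medians of 55405 to 73311 UMIs per cell, and no cell name occurred in more than 1 library. Nothing in the labels says that the 2 libraries without implants came from separate animals, so the p-values measure the spread between libraries, which may be technical. The names of the raw read files of STZ_M2, STZ_D42 and STZ_M5 begin with codes, here called runs, that none of these 3 libraries share. STZ_M2 shares its code with the second control library. For the libraries without implants no such code was found, so run and implant cannot be told apart. All 11 alpha-cell genes of the marker list were detected in the alpha cells of each of the 5 libraries. Delta cells had 9 or 10 of 10 delta-cell genes. PP cells had 5 or 6 of 8 PP-cell genes, with Aqp3 and Ptger4 at 0 in all 5 libraries. Immune-cell genes summed to 0 to 65.0 UMIs per 1000000 UMIs (CPM) of the summed alpha cells, and endothelial and stromal genes to 10.1 to 51.7 CPM. At day 42 immune-cell genes reached 767 CPM in delta cells and 70.9 CPM in PP cells. Endothelial and stromal genes reached 18.5 CPM in delta and 82.9 CPM in PP cells.

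Alpha cells were a larger share of the alpha, delta and PP cells in both libraries without implants than in the 3 implanted ones, and delta and PP cells a smaller one, in a design too small for the test to pass. Alpha cells were 74.5% of the 51 alpha, delta and PP cells of the first library without implants (exact Clopper-Pearson 95% interval 60.4 to 85.7) and 79.2% of the 24 of the second (57.8 to 92.9). They were 61.1% of 54 cells at month 2 with implants (46.9 to 74.1), 50.6% of 79 at day 42 and 50.0% of 46 at month 5. Both libraries without implants lay above all 3 implanted ones, with a mean of 76.8% ± 3.29 (SD, n = 2) against 53.9% ± 6.24 (SD, n = 3). The exact two-sided permutation test gave p = 0.20, the smallest value that 10 arrangements of 2 against 3 libraries allow. In the control libraries, from mice given buffer alone, the alpha share was 78.8% and 69.8%. The 2 libraries of day 12 after STZ, replicates of 1 group, had alpha shares of 17.2% and 58.6%, so replicates also differed widely. The libraries of day 6, day 30 and month 9 after STZ had alpha shares of 77.9%, 63.0% and 76.3%. Shares as high as those without implants were thus also found in other STZ libraries.

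Delta cells were 7.84% and 4.17% of these cells without implants, against 16.7%, 25.3% and 15.2% at month 2, day 42 and month 5 with implants. The groups did not overlap, and the difference of the means was -13.1 percentage points (exact two-sided permutation p = 0.20). PP cells were 17.6% and 16.7% without implants against 22.2%, 24.1% and 34.8% with them, a difference of -9.86 points with the same p. The controls had delta shares of 6.06% and 16.3% and PP shares of 15.2% and 14.0%. The day 12 libraries had delta shares of 40.6% and 12.1% and PP shares of 42.2% and 29.3%. At day 6, day 30 and month 9 the delta shares were 7.35%, 15.1% and 18.4% and the PP shares 14.7%, 21.9% and 5.26%. A share of sorted cells depends on the sort and on how the other types fared, and the number of beta cells under the same rule also differed: 2 and 5 without implants, 6 at month 2, 15 at day 42 and 57 at month 5. Cells with Prss2 of at least 1500 numbered 1 and 11 without implants against 103, 98 and 27 with them. Whether these differences took part in the shares was not tested.

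**Figure D1:**
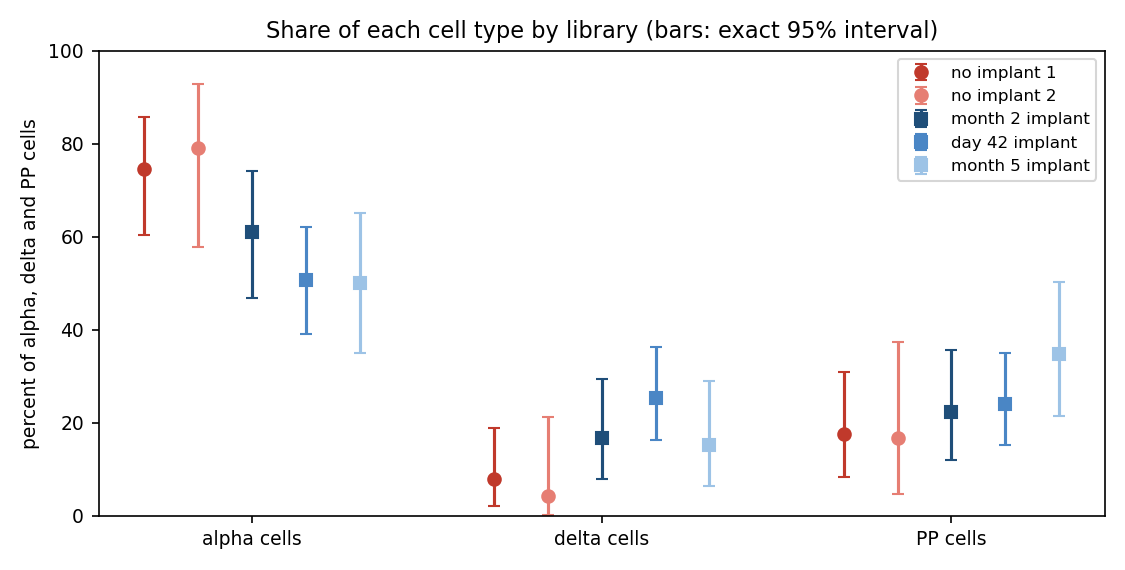
Percent of the alpha, delta and PP cells of each library that belong to each type (vertical axis), for 2 libraries without implants (circles) and 3 with implants (squares); bars are exact Clopper-Pearson 95% intervals, which cover counting error only. Alpha shares without implants (74.5% and 79.2%) sit above the implanted ones (50.0% to 61.1%), and delta shares (7.84% and 4.17%) below them (15.2% to 25.3%).

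In alpha cells, Fos and Ier2 were higher at month 2 without implants than with them, and 4 other genes passed the same test, all in the same direction. UMIs were summed over the alpha cells of each library and tested with edgeR's quasi-likelihood test, in which the replicated groups of the series set the spread because STZ_M2 is a single library. Of 12431 genes tested, 6 had an adjusted p (Benjamini-Hochberg) under 0.05 and are here named called, which is 0.0483% of them: Ins1, Ins2, Hba-a1, Hba-a2, Ier2 and Fos. No gene was called lower (0% of those tested), and 171 genes had an unadjusted p under 0.05. DESeq2 called 1 gene. Without the first library lacking implants 3 genes were called, and without the second 27. Blocking on the batch numbers of the labels gave 15 calls. The median log2 fold change over all genes was 0.04.

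Fos encodes a subunit of the AP-1 transcription factor. Its summed level in alpha cells was 1535 and 1555 CPM without implants, against 338 at month 2, 1377 at day 42 and 302 at month 5 with implants. Both libraries without implants were thus above every implanted one, but the day 42 library lay close to them. Against month 2 with implants Fos was 4.51-fold higher (log2 fold change 2.17, SE 0.51, edgeR adjusted p = 0.035). The control libraries had 2015 and 1129 CPM, so the high levels were those near the controls. Over all 16 alpha sums of the test, Fos ran from 19.96 CPM in one day 12 library to 2018 in the other, so replicates of 1 group also differed widely. The call was lost with DESeq2 (adjusted p = 1.0), and in edgeR with the month 2 libraries alone (adjusted p = 0.136), without the first library lacking implants (0.0779) and without either day 12 library (0.0637 and 0.0595).

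The difference in Fos was carried by most alpha cells. A Fos UMI was found in 37 of 38 and 19 of 19 alpha cells without implants, 26 of 33 at month 2, 40 of 40 at day 42 and 20 of 23 at month 5 with implants. After thinning each cell to 20975 UMIs, the share was 97.4% in the first library without implants, 74.2% at month 2 and 69.6% at month 5, and every alpha cell kept a Fos UMI in the second library without implants and at day 42. The median alpha cell had 1364 and 1361 CPM of Fos without implants against 110, 1417 and 101 CPM. Cells with Prss2 of at least 1500 had summed Fos levels of 1134 CPM (1 cell) and 352 CPM (11 cells) without implants, and 257, 367 and 187 CPM with them. In the second library without implants Fos in the Prss2-rich cells was therefore within the implanted range.

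Ier2, a nuclear early response gene, stood at 118 and 275 CPM without implants, and at 23.1, 241 and 82.5 CPM with them at month 2, day 42 and month 5. The day 42 library lay between the 2 libraries without implants, so the groups overlapped when all 3 implanted libraries were taken. At month 2 the difference was 8.39-fold (log2 fold change 3.07, SE 0.67, edgeR adjusted p = 9.94e-03), and it was not called without the second library lacking implants (adjusted p = 0.38), with the month 2 libraries alone (0.136) or with DESeq2 (1.0). An Ier2 UMI was present in 57.9% and 89.5% of alpha cells without implants against 24.2%, 80.0% and 43.5% with implants. In Prss2-rich cells Ier2 was also higher without implants, with 678 CPM (1 cell) and 204 CPM (11 cells). The implanted libraries had 59.2, 190 and 114 CPM, without overlap, and the part of RNA from other cells was not tested.

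The other early genes pointed the same way at month 2 without passing the test. Dusp1, a phosphatase that switches off MAP kinases, had 179 and 244 CPM without implants against 33.2, 163 and 74.7 CPM, with no overlap (log2 fold change 2.65, SE 0.69, edgeR adjusted p = 0.16). Fosb, a second AP-1 subunit, had 44.8 and 159 CPM against 7.71, 100 and 1.12 CPM (log2 fold change 3.70, adjusted p = 0.092). Junb, a partner of Fos, had 409 and 323 CPM against 90.2, 558 and 250 CPM, where the day 42 library was the highest. Btg2, an antiproliferative early gene, had 777 and 1078 CPM against 346, 668 and 456 CPM, with no overlap. Egr1, a zinc finger factor, had 169 and 560 CPM against 92.5, 322 and 88.1 CPM. In each of these 5 genes the month 2 and month 5 implanted libraries were below both libraries without implants, and the day 42 library was not below the lower of them in Fosb, Junb and Egr1.

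The 250 bases before the start site of 4 of these genes are shown because they hold the cAMP response core site TGACG, the element through which CREB reads calcium and cAMP in many early genes. The sequences are from RefSeq on GRCm38.p6, written 5′ to 3′ on the strand of the gene, and capitals mark TGACG and, in Dusp1, the full element TGACGTCA.
Fos (chr12:85473640-85473889, plus strand): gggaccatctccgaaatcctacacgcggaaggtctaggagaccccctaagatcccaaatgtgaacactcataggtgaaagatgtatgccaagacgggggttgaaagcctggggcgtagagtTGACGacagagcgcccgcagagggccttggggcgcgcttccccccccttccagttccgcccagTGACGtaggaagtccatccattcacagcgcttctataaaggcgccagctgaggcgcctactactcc
Fosb (chr7:19310046-19310295, minus strand): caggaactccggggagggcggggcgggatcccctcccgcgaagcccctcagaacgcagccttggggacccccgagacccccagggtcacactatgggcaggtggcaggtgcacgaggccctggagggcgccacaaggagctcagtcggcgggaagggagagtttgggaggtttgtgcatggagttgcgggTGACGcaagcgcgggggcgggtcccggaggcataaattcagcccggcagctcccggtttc
Junb (chr8:84978749-84978998, minus strand): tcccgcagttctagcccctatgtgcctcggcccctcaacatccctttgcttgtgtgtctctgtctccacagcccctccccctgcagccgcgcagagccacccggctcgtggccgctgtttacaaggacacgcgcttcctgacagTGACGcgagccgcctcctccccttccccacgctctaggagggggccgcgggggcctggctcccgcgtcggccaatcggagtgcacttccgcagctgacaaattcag
Dusp1 (chr17:26508473-26508722, minus strand): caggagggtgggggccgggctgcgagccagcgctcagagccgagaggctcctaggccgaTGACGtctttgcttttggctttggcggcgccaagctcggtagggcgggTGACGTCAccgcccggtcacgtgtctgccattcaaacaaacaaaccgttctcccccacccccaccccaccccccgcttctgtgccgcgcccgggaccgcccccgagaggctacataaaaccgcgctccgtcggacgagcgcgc
Both strands were searched for TGACG, which is contained in the full TGACGTCA. In Fos the core site starts 129 and 66 bases before the start of transcription, in Fosb 60 bases and in Junb 106 bases before it. Dusp1 holds the full element 143 bases before its start and a further core site 191 bases before it. Of 32851 RefSeq promoter windows of the same length, 17.8% hold TGACG and 1.55% hold TGACGTCA, so the core site alone is common. The windows of Hsph1, Hspa1a and Hspa1b held no match to TGACG or to the heat shock element, which 0.466% of all windows hold. The heat shock element was searched only as a fixed pattern in which every repeat unit is perfect. An element with fewer units or an imperfect unit would have been missed, so its absence from these windows was not shown. None of the windows of Hsph1, Hspa1a and Hspa1b, and none of the 4 printed ones, held the CArG box of the serum response element, which 1.47% of all windows hold. Sequence more than 250 bases before the start was not searched, so an element further upstream would have been missed. Of 8 genes looked up, 7 were matched, and Ier2 was not.

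**Figure D2:**
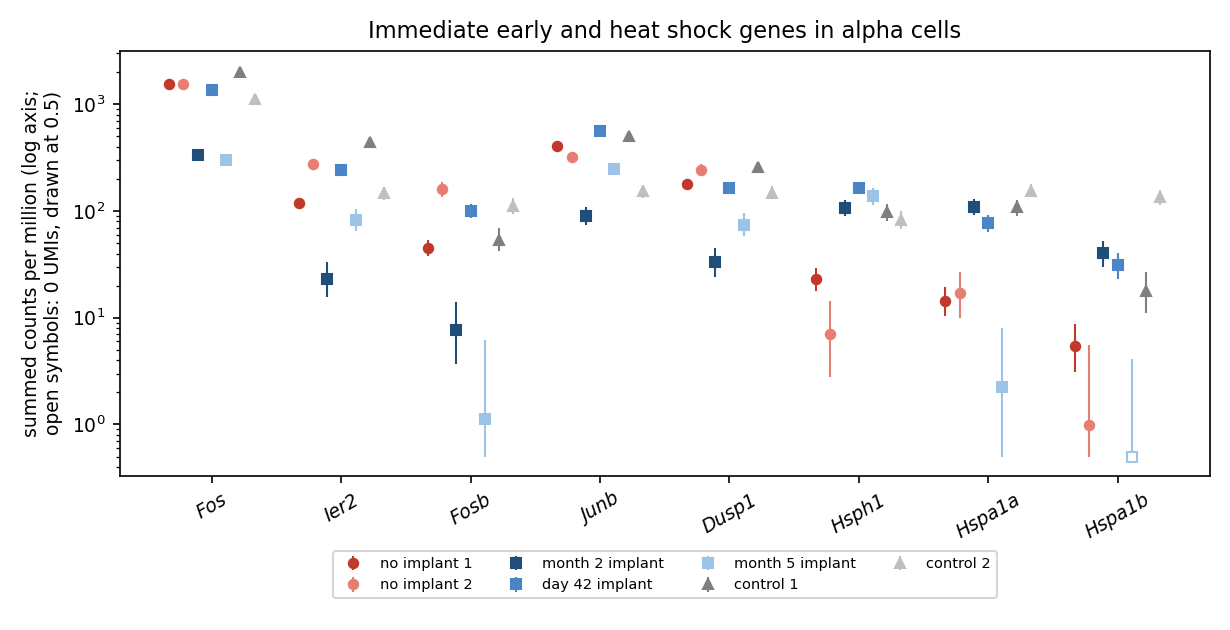
Summed CPM in alpha cells (vertical log axis) of 5 immediate early genes and 3 heat shock genes, for each library without implants (circles), with implants (squares) and from control mice (triangles); bars are exact Poisson 95% intervals of the summed count and cover counting error only. For Fos the libraries without implants (1535 and 1555) and the day 42 library (1377) lie together above those of month 2 (338) and month 5 (302), whereas for Hsph1 both libraries without implants (23.1 and 6.97) lie below all others drawn.

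Heat shock genes went the other way in part. Hsph1, a co-chaperone of the HSP70 family, had 23.1 and 6.97 CPM without implants, against 106, 163 and 137 CPM at month 2, day 42 and month 5 with implants and 97.6 and 82.9 CPM in the controls. Both libraries without implants were below every implanted one. Against month 2 alone Hsph1 was 6.83-fold lower and did not pass (log2 fold change -2.77, SE 0.68, edgeR adjusted p = 0.078). Against the 3 implanted libraries at once, in a fit of these 5 libraries only, it was the 1 gene called of 9514 tested (0.0105%), with a log2 fold change of -3.05, SE 0.45 and edgeR adjusted p = 0.04999. No gene was called once the month 2 or the day 42 implanted library was left out, and 3 and 6 were called without the first and the second library lacking implants. Without the month 5 library 2 genes were called, both higher, so the Hsph1 call was lost on leaving out each implanted library in turn, and no gene was called after thinning or with no Prss2 limit. In the fit of 5 libraries 414 genes had an unadjusted p under 0.05 and DESeq2 called 8. An Hsph1 UMI was found in 50.0% and 21.1% of alpha cells without implants against 84.8%, 82.5% and 82.6% with them, and after thinning in 26.3% and 5.26% against 71.0%, 81.3% and 78.3%. In Prss2-rich cells Hsph1 had 7.14 CPM (2 UMIs in 1 cell) and 4.72 CPM (9 UMIs in 11 cells) without implants. With implants it had 8.89, 39.6 and 41.1 CPM, and so few UMIs cannot tell the levels without implants from the 8.89 CPM at month 2.

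The inducible HSP70 gene Hspa1a did not separate the groups: it had 14.3 and 16.9 CPM without implants and 110, 76.9 and 2.23 CPM with them, the lowest value being that of the month 5 library. Hsp90aa1, a cytosolic HSP90, had 847 and 520 CPM against 853, 1199 and 1376 CPM (edgeR adjusted p = 1.0). The constitutive chaperone Hspa8 overlapped, with 1047 and 524 CPM against 916, 1154 and 1027 CPM. Over the 23 tested genes of the list of immediate early and heat shock genes, 2 were called higher and none lower, with a median log2 fold change of 1.24 against 0.04 for all genes. Both libraries without implants lay above all 3 implanted ones in 4 of the 23 and below them in 3. Over all genes tested that held for 9.24% (higher) and 9.48% (lower).

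Insulin transcripts in alpha cells were higher at month 2 without implants but did not follow the implant across the other libraries. The rule caps Ins2 at a part of Gcg, so Ins2 is given as a description and Ins1, which moves with it, is bounded by the same limit. Ins1 had 3378 and 6426 CPM in alpha cells without implants, 234 at month 2 and 98.96 at day 42 with implants, but 5951 at month 5 with implants and 6777 and 4108 in the controls. Against month 2 the log2 fold change of Ins1 was 4.38 (SE 0.52, edgeR adjusted p = 4.43e-13), and the month 5 implanted library lay between the 2 libraries without implants. Ins2 had 8466 and 15940 CPM without implants, and 1194, 699 and 18500 CPM with them.

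Similar levels were found in cells rich in Prss2. This class was set by Prss2 alone, with no limit on hormones, so it may hold endocrine cells. In cells with Prss2 of at least 1500, summed Ins1 was 3378 and 5578 CPM without implants, 182 at month 2, 109 at day 42 and 6795 at month 5. Alpha cells and Prss2-rich cells of 1 library thus had similar Ins1 levels, and in both kinds of cells the month 2 and day 42 implanted libraries were the lowest. Every alpha cell of the 2 libraries without implants and of the month 5 library had an Ins1 UMI, the lowest level being 109, 283 and 396 per 100000, respectively. The median UMIs per alpha cell were 81681 and 46649 without implants and 34955, 29394 and 38469 with them; in the Prss2-rich cells they were 280309 and 188185, and 108649, 189171 and 182924. Cells in which Ins2 was the highest of the 4 hormones numbered 5 of 76 and 17 of 51 without implants, 22 of 181 at month 2, 65 of 240 at day 42 and 89 of 153 at month 5. The part of RNA from other cells in these levels was not tested.

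**Figure D3:**
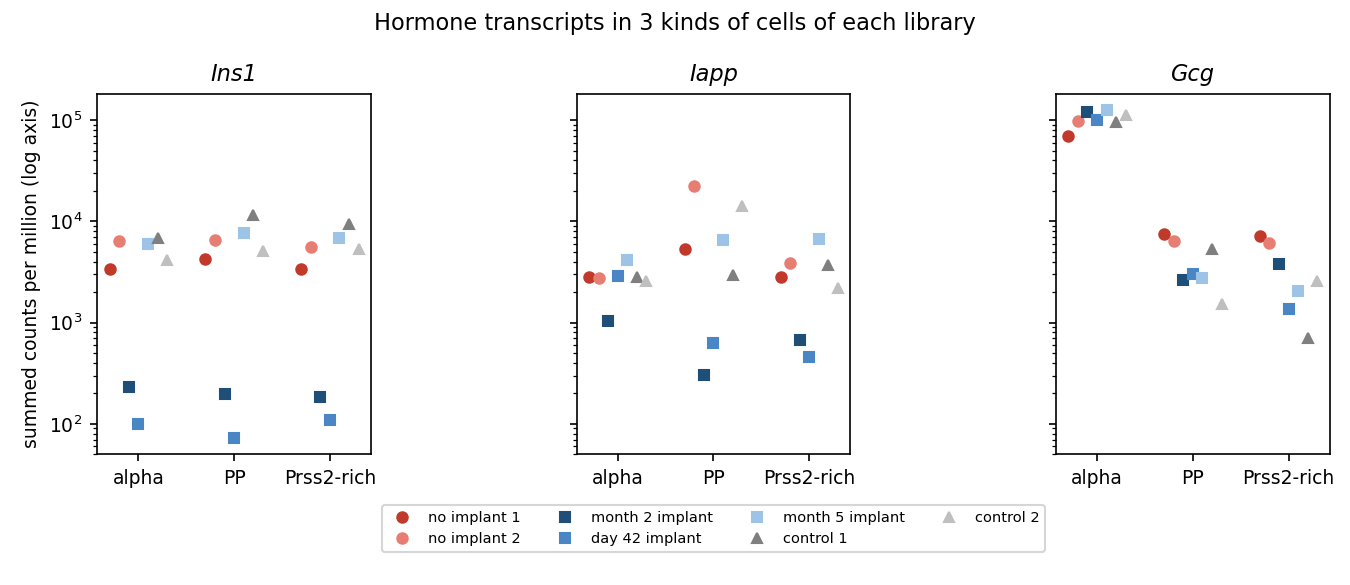
Summed CPM (vertical log axis) of Ins1, Iapp and Gcg in alpha cells, PP cells and cells with Prss2 of at least 1500 of each library; circles are libraries without implants, squares with implants, triangles controls. Ins1 takes nearly the same level in all 3 kinds of cells of a library, for example 234, 197 and 182 at month 2 with implants, whereas Gcg is highest in alpha cells.

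Insulin transcripts also set how close cells came to the edge of the rule. The median ratio of Gcg to the next hormone was 7.96 and 6.89 without implants, against 57.5, 122 and 6.57 at month 2, day 42 and month 5. The next hormone was Ins2 in 33 of 38 and 17 of 19 alpha cells without implants, 6 of 33 and 12 of 40 at month 2 and day 42, and 21 of 23 at month 5. Alpha cells just inside the limit, with a ratio from 3 to 4, numbered 1 and 3 without implants and 2, 0 and 0 with them. Those just outside, from 2 to 3, numbered 0 and 2, and 2, 1 and 0. Few alpha cells therefore lay near the limit, except in the second library without implants, where 3 of 19 lay just inside it and 2 more just outside.

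Haemoglobin alpha transcripts completed the list of called genes, and most came from single cells. Hba-a2 had 48.9 and 6.97 CPM in alpha cells without implants and 0, 1.79 and 3.35 CPM with them. STZ_M2 held no Hba-a2 UMI; with 3 UMIs as the limit that a count of 0 allows in that library, the mean without implants was at least 12.1-fold higher (edgeR adjusted p = 9.51e-04). Hba-a1 had 87.0 and 4.98 CPM against 2.31, 0.596 and 2.23 CPM (log2 fold change 4.28, edgeR adjusted p = 9.18e-03). One cell gave 77.0% of the Hba-a1 UMIs of the first library and 80.0% of those of the second, which held 2 alpha cells with the transcript. The paired genes are near-identical copies, so reads may be split between them, and haemoglobin is a product of red blood cells. Without the first library neither gene was called.

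No identity gene of alpha cells passed the test. Gcg, used by the rule, had 69730 and 96970 CPM without implants against 121700, 101100 and 126200 CPM with them, and the controls had 95070 and 113600 CPM. Among the 11 alpha-cell genes of the list the median log2 fold change was 0.13, and none was called. Gc, the vitamin D binding protein that alpha cells make, had 653 and 566 CPM against 263, 332 and 500 CPM, with no overlap (log2 fold change 1.19, SE 0.52, edgeR adjusted p = 1.0). Slc7a2, a carrier of arginine and lysine, had 246 and 538 CPM against 789, 630 and 535 CPM, and the groups overlapped at 538 and 535. Pyy, a peptide YY gene that alpha cells also express, had 20940 and 15550 CPM against 10170, 7329 and 17500 CPM and overlapped.

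The secretory granule genes of alpha cells were also without a call among 19 tested, with a median log2 fold change of -0.08. Scg2, secretogranin II, stood out within the list, with 4734 and 3197 CPM without implants against 1543, 1921 and 1759 CPM with them and 1328 and 1932 CPM in the controls. The groups did not overlap and the month 2 difference was 2.52-fold, but it did not pass (log2 fold change 1.34, SE 0.45, edgeR adjusted p = 1.0). The glucagon convertase Pcsk2, with 10980 and 11940 CPM against 12480, 10900 and 12630 CPM, and the granin Chgb, with 1189 and 975 CPM against 1110, 880 and 880 CPM, overlapped. Pcsk1n, an inhibitor of the convertase Pcsk1, had 5986 and 4239 CPM against 6939, 8241 and 5986 CPM.

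Genes of insulin and FoxO signalling, the pathway below the insulin receptor, held no call among 30 tested, with a median log2 fold change of -0.03. Both libraries without implants were above all implanted ones in 3 of the 30 and below them in 6, where 9.24% and 9.48% of all genes did so. The insulin receptor Insr had 24.5 and 28.9 CPM without implants against 27.8, 34.0 and 29.0 CPM. Pdk4, which FoxO factors induce when insulin is low, had 179 and 190 CPM against 123, 225 and 137 CPM. Igfbp7, an IGF binding protein, was lower in both libraries without implants, at 108 and 104 CPM against 182, 236 and 123 CPM (log2 fold change -0.79, SE 0.55, edgeR adjusted p = 1.0). The adapter Irs2 had 131 and 78.6 CPM against 118, 48.3 and 65.8 CPM, and overlapped.

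Of 14 glucose-induced genes tested none was called, with a median of -0.07. Txnip, the thioredoxin-binding protein that glucose induces through ChREBP, had 333 and 452 CPM against 373, 324 and 340 CPM. Its relative Arrdc4 had 52.7 and 50.7 CPM against 24.7, 19.1 and 29.0 CPM, with no overlap (log2 fold change 1.05, SE 0.96, edgeR adjusted p = 1.0). G6pc2, a glucose-6-phosphatase subunit of islets, had 66.9 and 62.7 CPM against 28.5, 15.5 and 56.9 CPM, also without overlap and without a call. Among 22 cholesterol synthesis genes none was called. The median was 0.50, and 5 had both libraries without implants above the implanted ones (9.24% of all genes did), among them the sterol demethylase Cyp51 with 34.6 and 27.9 CPM against 13.1, 26.2 and 14.5 CPM.

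The remaining lists in alpha cells held no call either. They were the unfolded protein response (26 tested, median log2 fold change 0.18), ATF4 and CHOP targets (20, 0.35), oxidative stress response (24, 0.25), antigen presentation and interferon response (20, 0.44), glycolysis and lactate (22, 0.19), fatty acid use and ketone genes (21, 0.13), amino acid transport and use (19, 0.12), excitability and exocytosis (29, -0.09), hormone and nutrient receptors (14, 0.47), islet transcription factors (25, 0.11), progenitor and dedifferentiation genes (15, 0.31) and cell division (20, 0.00). Of the 83 cytosolic ribosomal protein genes, 12 had both libraries without implants above the 3 implanted ones and none below (9.24% and 9.48% of all genes), while their median against month 2 alone was -0.13. Acinar-cell genes summed to 4461 and 37070 CPM in the alpha cells without implants and to 23140, 19170 and 10050 CPM with them, so the 2 libraries without implants lay on either side of the implanted ones.

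Genes with the smallest p values among those whose groups did not overlap, none of which passed, included the gastric and intestinal peptide gene Spink4, with 0 and 0.995 CPM against 14.7, 19.7 and 1.12 CPM (edgeR adjusted p = 0.078). The cAMP-responsive factor Creb1 had 18.3 and 3.98 CPM against 77.1, 65.6 and 55.7 CPM (log2 fold change -2.72, SE 0.83, edgeR adjusted p = 0.76). Ssh2, a cofilin phosphatase, had 4.08 and 0.995 CPM against 38.5, 28.0 and 6.69 CPM. Arg1, arginase, which is more typical of delta cells, had 24.1 and 14.9 CPM against 71.7, 105 and 109 CPM (edgeR adjusted p = 1.0). Gast, gastrin, had no UMI in either library without implants and 6.17, 2.39 and 10.03 CPM with them. In all 5 of these genes both libraries without implants were below the implanted ones.

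**Figure D4:**
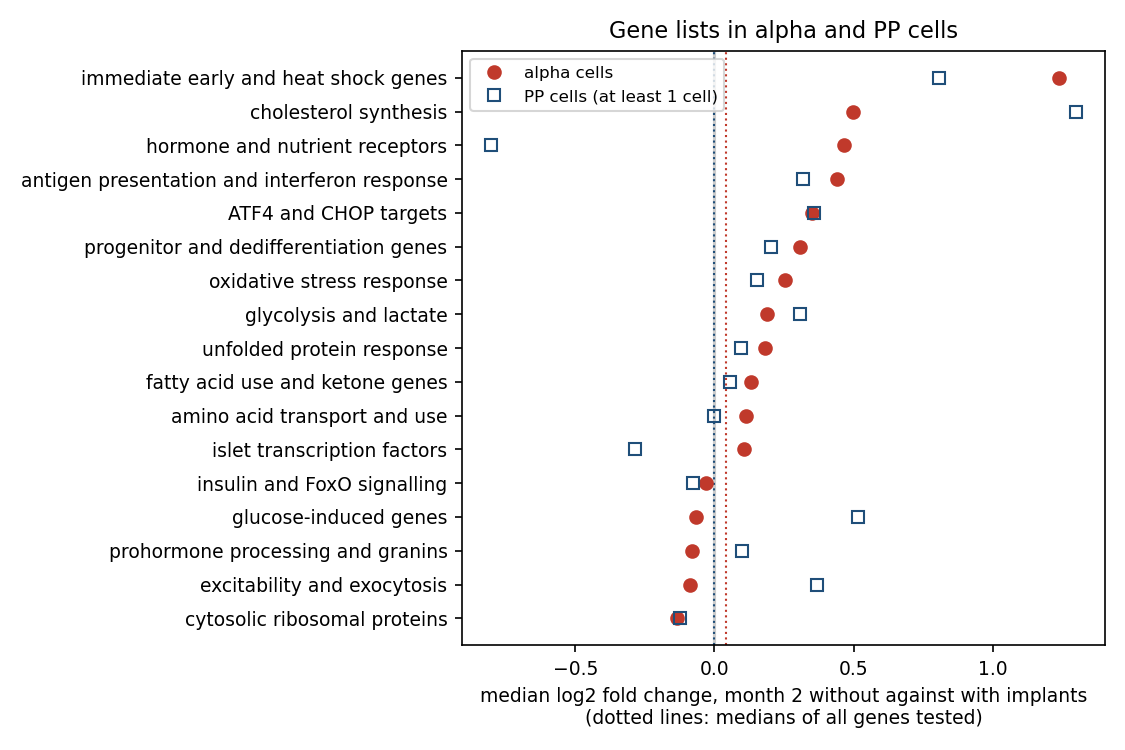
Median log2 fold change at month 2 without against with implants (horizontal axis) of the tested genes of each list, in alpha cells (filled circles) and in PP cells (open squares, libraries with at least 1 PP cell); dotted lines mark the medians of all genes tested. Immediate early and heat shock genes have medians of 1.24 and 0.81, and cholesterol synthesis genes of 0.50 and 1.298. In the fit with at least 5 PP cells per library, which is not drawn, the PP medians were 0.58 and 0.34, and that of insulin and FoxO signalling was -0.47 in place of -0.08.

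PP cells without implants had more Chga and Ier2 and less Rbp4 and Pappa2 than PP cells at month 2 with implants. The second library without implants held 4 PP cells, under the minimum of 5 cells set for a library to enter the test, so a fit that kept every library with at least 1 PP cell was added after the data were seen. In it 11 of 9453 genes were called (0.116%), of which 5 were higher (0.0529%) and 6 lower (0.0635%). In all, 412 genes had an unadjusted p under 0.05, and DESeq2 called 2 genes. The higher genes were Iapp, Ins1, Ins2, Ier2 and Chga, and the lower ones Rbp4, Pappa2, Hspa1a, Arl5c, Cyr61 and Yam1. Of these, Ins2 was used by the rule and is a description, and Ins1, which moves with it, is bounded by the same limit. The rule set no limit on Iapp. Without the first library lacking implants 8 genes were called, and without the second 7. Against all 3 implanted libraries, the same minimum gave 0 calls of 7085 genes (0%) with edgeR, 421 at an unadjusted p under 0.05, and 5 calls with DESeq2.

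Chga, chromogranin A, a main granule protein, had 9065 and 11800 CPM in PP cells without implants, against 2832, 2921 and 4144 CPM at month 2, day 42 and month 5 with implants and 2952 and 6906 CPM in the controls. Both libraries without implants were above all others named. The log2 fold change against month 2 was 1.84 (SE 0.42, edgeR adjusted p = 0.023), or 1.56 with an adjusted p of 0.22 when only libraries of at least 5 cells were used. The call was lost without either library lacking implants (edgeR adjusted p = 0.106 without the first and 0.444 without the second) and without either day 12 library (0.129 and 0.118). The median PP cell had 6648 and 5767 CPM without implants against 2635, 2493 and 3235 CPM, although 1 of the 4 cells of the second library gave 67.7% of its Chga UMIs. In alpha cells Chga had 11290 and 7898 CPM against 7816, 6944 and 8371 CPM and overlapped.

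The other granule genes of PP cells were not called. Cpe, the carboxypeptidase that trims prohormones, had 3361 and 2187 CPM against 1888, 1792 and 2178 CPM, so that the groups just failed to overlap. Scg2 had 6826 and 3701 CPM against 4763, 3671 and 4144 CPM and overlapped, unlike in alpha cells. Of 18 tested genes of the list, 1 was called higher and none lower, and 5 had both libraries without implants above the implanted ones, where 11.1% of all genes did and 11.4% lay below.

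Of the 22 tested genes of the immediate early and heat shock list, Ier2 was the 1 called higher in PP cells and Hspa1a the 1 called lower. Ier2 had 343 and 453 CPM without implants against 37.6, 66.4 and 77.1 CPM with them, with no overlap (log2 fold change 3.35, SE 0.77, edgeR adjusted p = 0.023). Fos had 1838 and 1580 CPM against 425, 786 and 186 CPM, with no overlap and no call (log2 fold change 1.96, SE 0.68, edgeR adjusted p = 0.63). The Ier2 call was lost without the first (edgeR adjusted p = 0.271) or the second (0.613) library lacking implants and without either control library (0.372 and 0.514). Unlike in alpha cells, the day 42 library was below both libraries without implants for Ier2. When only libraries with at least 5 PP cells were used, the first library without implants stood alone against the 3 implanted ones, whose spread over 3 times it was assumed to share, and gave calls for Ier2 (log2 fold change 2.26, SE 0.48, edgeR adjusted p = 9.31e-03) and Fos (1.76, SE 0.42, adjusted p = 0.043), whereas with both libraries no gene was called. Btg2 had 987 and 751 CPM against 422, 362 and 352 CPM and Egr1 335 and 381 CPM against 206, 118 and 4.72 CPM, both without overlap. Of the 22 list genes tested, 7 had both libraries without implants above the implanted ones and 1 below, where 11.1% and 11.4% of all genes did so.

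Hspa1a was called lower in PP cells against month 2, with 6.12 and 0 CPM without implants against 254, 61.8 and 0 CPM with them. The month 5 implanted library held no UMI either, so the groups overlapped, and 1 of the 12 PP cells at month 2 gave 56.5% of the Hspa1a UMIs there. The call was lost without either library lacking implants (edgeR adjusted p = 0.296 and 0.492). Hsph1, low in alpha cells without implants, had 87.2 and 5.52 CPM in PP cells against 68.5, 140 and 80.2 CPM and overlapped.

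Of the 6 genes called lower in PP cells, Rbp4, Pappa2 and Arl5c did not overlap with any implanted library. Rbp4, retinol binding protein 4, had 269 and 122 CPM against 873, 659 and 477 CPM and 496 and 390 CPM in the controls (log2 fold change -2.18, SE 0.45, edgeR adjusted p = 5.45e-03). Pappa2, a protease that cleaves IGF binding proteins, had 167 and 122 CPM against 683, 223 and 305 CPM (log2 fold change -2.27, SE 0.48, edgeR adjusted p = 6.01e-03). Without the second library lacking implants neither was called (edgeR adjusted p = 0.295 for Rbp4 and 0.149 for Pappa2), and without the first Rbp4 was called (0.0185) and Pappa2 was not (0.0782). Arl5c had no UMI in PP cells without implants and 81.8, 1.51 and 6.29 CPM with them, and Cyr61 and the repeat transcript Yam1 were called lower with overlapping groups. Rbp4 is abundant in delta cells, where it had 4392 and 7288 CPM without implants against 6898, 6234 and 6241 CPM. In Prss2-rich cells it was also lower without implants, with 64.2 CPM (1 cell) and 41.5 CPM (11 cells). The implanted libraries had 102, 80.9 and 248 CPM, without overlap. The part of RNA from other cells in the PP levels was not tested.

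Cholesterol synthesis genes in PP cells had a median log2 fold change of 1.298 over 22 tested genes, against 0.00 for all genes, and none was called. In the planned fit, which holds the first library without implants alone, the median of the list was 0.34 over 23 genes. Of the 22, 10 had both libraries without implants above the 3 implanted ones and 1 below them, where 11.1% and 11.4% of all genes did so. Fdps, farnesyl diphosphate synthase, had 104 and 149 CPM against 33.2, 52.8 and 40.9 CPM. Fdft1, squalene synthase, had 99.5 and 171 CPM against 37.6, 57.3 and 33.0 CPM. Msmo1, a sterol methyl oxidase, had 59.7 and 320 CPM against 17.7, 16.6 and 45.6 CPM (log2 fold change 3.34, SE 1.08, edgeR adjusted p = 0.54).

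**Figure D5:**
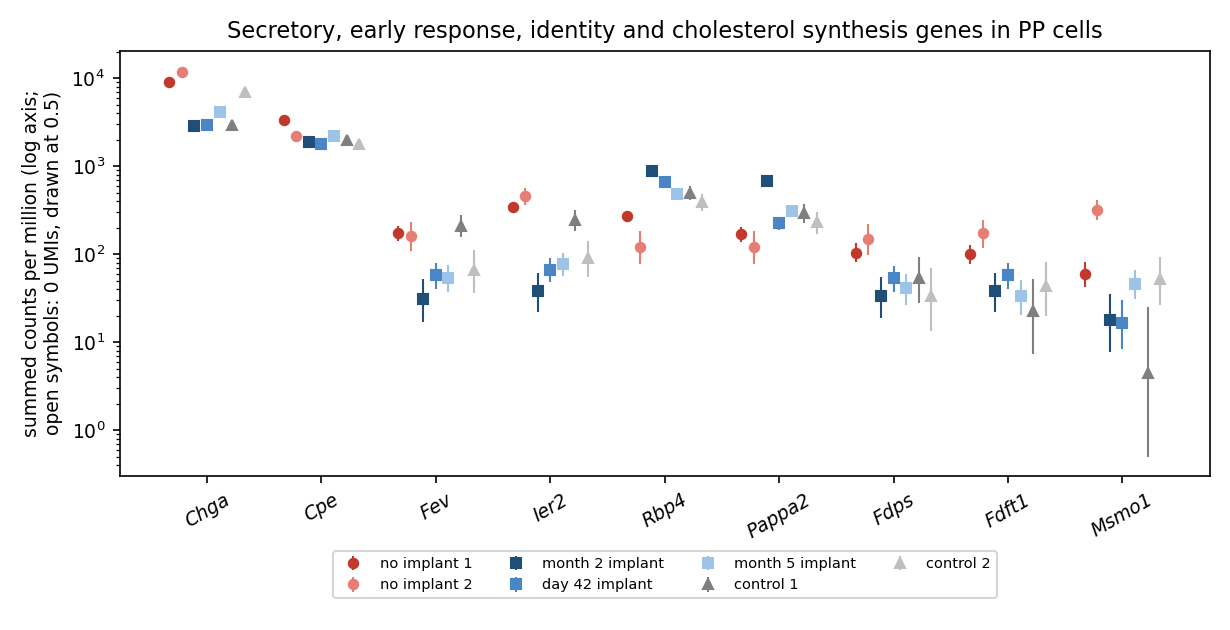
Summed CPM in PP cells (vertical log axis) of granule, early, identity and cholesterol synthesis genes, for libraries without implants (circles), with implants (squares) and controls (triangles); bars are exact Poisson 95% intervals of the summed count and cover counting error only. Chga (9065 and 11800 without implants) and Ier2 (343 and 453) lie above all implanted libraries, and Rbp4 (269 and 122) lies below them.

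In the fit limited to libraries with at least 5 PP cells, the month 2 comparison rested on the 9 PP cells of the first library without implants. It called 26 of 10154 genes (0.256%), 4 higher and 22 lower, with 685 at an unadjusted p under 0.05 and 1 call with DESeq2. It called 208 and 224 genes when the first or the second control library was left out. Against the 3 implanted libraries 32 of 8277 genes were called (0.387%), 4 higher and 28 lower, and 58, 67 and 102 were called without the month 2, day 42 and month 5 libraries, respectively. Most of the lower genes were pancreatic enzymes and other acinar products, among them the trypsinogen Try4 with 217 CPM in this library against 2149, 1336 and 1094 CPM with implants. Prss2, also called lower at month 2, was capped by the choice of cells. The cap bounds the other acinar genes too, so these calls are a description. The second library without implants had 1331 CPM of Try4, inside the implanted range. Over the whole acinar list PP cells had 4450 and 27940 CPM without implants and 23700, 16330 and 16770 CPM with them. The first library held 1 cell with Prss2 of at least 1500 and the others held 11 to 103, and the part of acinar RNA in these calls was not tested.

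Amylin and insulin transcripts in PP cells were higher without implants than at month 2 and day 42 with them, but did not separate from the month 5 implanted library. Iapp had 5361 and 22370 CPM without implants, 305 and 634 CPM at month 2 and day 42 with them, but 6561 CPM at month 5 with implants. In the second library the median PP cell had 809 Iapp UMIs per 100000 and the highest of the 4 cells 9746, so 1 cell set much of that level, and without this library the log2 fold change against month 2 went from 5.49 to 4.02. In alpha cells Iapp had 2844 and 2742 CPM without implants against 1038, 2885 and 4160 CPM with them and was not called (edgeR adjusted p = 0.99). The median alpha cell had 233 and 316 Iapp UMIs per 100000 without implants, against 38.6, 58.3 and 466 with them. Single alpha cells reached 1700 at month 2 and 3477 at day 42, so the sums there leaned on few cells. In PP cells Ins1 had 4278 and 6502 CPM against 197, 72.4 and 7701 CPM. In PP cells the month 5 library lay between those without implants for Iapp and above both for Ins1. Gcg in PP cells, limited by the rule to a part of Ppy, had 7542 and 6402 CPM without implants against 2631, 3042 and 2728 CPM. In Prss2-rich cells Gcg had 7117 and 6123 CPM without implants against 3808, 1363 and 2042 CPM, so the levels in PP cells and in Prss2-rich cells lay close together without implants.

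PP identity genes were not called among 5 tested, with a median log2 fold change of -0.22. Ppy, the gene the rule used, had 86520 and 108500 CPM without implants against 121600, 142500 and 136100 CPM. Pyy had 63910 and 88710 CPM against 86550, 87870 and 94830 CPM, and Isl1, a transcription factor of islet cells, 236 and 138 CPM against 292, 281 and 313 CPM. Fev, a serotonergic factor of islet precursors, had 173 and 160 CPM against 31.0, 57.3 and 53.5 CPM, with no overlap (log2 fold change 2.37, SE 0.83, edgeR adjusted p = 0.66). Insulin and FoxO signalling genes had no call among 26 tested (median -0.08), and glucose-induced genes none among 12 (median 0.52). Txnip had 493 and 569 CPM against 312, 151 and 175 CPM in PP cells, with no overlap and an edgeR adjusted p of 1.0.

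Delta cells were too few for the planned test: the libraries without implants held 4 and 1. Of these, 3 and 1 had a ratio of Sst to the next hormone from 3 to 4, just inside the limit, against 0, 5 and 0 of 9, 20 and 7 with implants. Cells just outside, from 2 to 3, numbered 2 and 1 without implants and 3, 5 and 6 with them, so the delta shares and levels without implants rest on cells at the limit. In a fit with every library of at least 1 delta cell, added after the data were seen, 10 of 8644 genes were called (0.116%), 6 higher and 4 lower, with 416 at an unadjusted p under 0.05 and 1 call with DESeq2. The count was 2 and 4 without the first and the second day 12 library, 15 and 28 without the first and the second library lacking implants, 15 and 20 without the first and the second P12 library, and 23 after blocking on the batch numbers. Haemoglobin genes, Ins1 and unnamed transcripts made up those that were higher, and the acinar genes Try4, Cpb1, Reg3b and Prss2 those that were lower. Prss2 was capped by the choice of cells, which also bounds the other acinar genes, so these 4 are a description. Hba-a1 had 5172 and 33.0 CPM without implants and 0, 0 and 14.7 CPM with them, so that the level came from the first library. Ins1 had 3011 and 2045 CPM against 113, 75.6 and 7124 CPM, the month 5 implanted library being the highest.

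Fos and Ier2 in delta cells had the direction seen in the other types without a call. Fos had 753 and 2209 CPM without implants against 70.8 and 395 CPM at month 2 and day 42 with them and 3 UMIs in all at month 5, with no overlap (log2 fold change 3.78, SE 1.12, edgeR adjusted p = 0.28). Ier2 had 92.4 and 495 CPM against 9.44, 91.0 and 18.3 CPM, again without overlap (log2 fold change 4.13, SE 1.54, edgeR adjusted p = 0.91). For Ier2 the closest values, 92.4 CPM without and 91.0 CPM with implants, nearly met. Over the 20 tested genes of the immediate early and heat shock list, 11 had a positive log2 fold change at month 2. The median was 0.27, against -0.23 for all genes. Both libraries without implants lay above all 3 implanted ones in 3 of the 20 and below them in 2. In the fit against the 3 implanted libraries the list median was -0.02, against -0.26 for all genes. Over all genes tested in delta cells, 7.43% had both libraries without implants above the implanted ones and 21.8% had them below, so non-overlap was frequent with so few cells. Fos was thus an early gene whose libraries without implants lay above the 3 implanted ones in alpha, delta and PP cells alike, and these 3 sums come from the same libraries. Hhex, a delta cell factor, had 517 and 33.0 CPM against 344, 444 and 495 CPM, and Chga 7735 and 3562 CPM against 2769, 2864 and 4066 CPM, both overlapping.

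Whether the implant comparison differed between types was tested directly, with library as a block. Between PP and alpha cells, 4 of 11703 genes were called (0.0342%), 2 higher and 2 lower in PP cells, with 370 at an unadjusted p under 0.05 and 0 calls with DESeq2. They were Gcg, Iapp, Pyy and Higd1a, and neither Chga, Ier2, Fos, Scg2 nor Hsph1 was among them, so no difference between the types was shown for these. Higd1a, a mitochondrial protein induced by low oxygen, had 6.12 and 11.1 CPM in PP cells without implants against 99.5, 70.9 and 20.4 CPM with them, and 521 and 240 against 305, 326 and 420 CPM in alpha cells. Between delta and alpha cells no gene of 11064 was called (0%), with 297 at an unadjusted p under 0.05 and 0 calls with DESeq2.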

How the data were processed

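The 17 libraries of the series were sequenced by a modified STRT-seq protocol on cells transferred singly after sorting, with 18 and then 4 cycles of PCR, per the labels' protocols. The authors deposited a table of UMI counts per gene and cell and a table, here called the signal table, in which the authors scaled each cell's counts to 100000 after leaving out Yam1, the insulin genes Ins1 and Ins2, and the peptide genes Gcg, Iapp, Ppy, Pyy and Sst (this identity held within 0.01 for 100% of the nonzero values). The submitters' processing notes name TopHat2 2.1.0, featureCounts 1.5.3, SAMtools 1.3.1, UMI-tools 0.5.0 and mm10; parameters are not given in the sources used here. The deposited count table holds 40824 genes and 2999 cells, with at least 7751 UMIs per cell. No doublet caller was run, since cells were transferred singly.

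Cells were typed on the deposited signal values, and counts were summed per library and type. The sums were tested with edgeR 4.0.16 (quasi-likelihood, TMM, filterByExpr by group, Benjamini-Hochberg adjusted p under 0.05 over all genes tested) in R 4.3.3 with limma 3.58.1, taking libraries with at least 5 cells of the type, and with DESeq2 1.42.0 as an alternative. Delta and PP cells of the libraries without implants did not all reach 5 cells, so fits with at least 1 cell were added after the data were seen. The fits were tested on simulated data. CPM are per 1000000 UMIs of the summed cells. Shares have exact Clopper-Pearson 95% intervals (SciPy 1.17.1). Intervals cover counting error only.

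The members, gene lists and tests were chosen with earlier results of these data known. Named genes were, for each type, the 10 called genes with the largest change among those whose libraries without implants both lay on 1 side of the 3 implanted ones, filled by smallest p and said not to pass, then genes called in several types, up to 4 members of the fixed lists by smallest p, and the hormone genes. Predicted genes and pseudogenes were not named by this rule. Other genes named were chosen after their values were seen. Alternatives covered scaling, the low-count filter, DESeq2, the libraries that set the spread, thinning to 20975 UMIs, the hormone ratio, the Prss2 limit and leaving out each replicate.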

Additional observations from a re-analysis of the deposited data

Results flagged for a closer look

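The difference between the implant comparison in PP cells and that in alpha cells was itself tested with library as a block (edgeR, 11703 genes), and 4 genes passed. The PP side of this test rests on the 9 PP cells of the first library without implants, and DESeq2 called none of them. Iapp, amylin, differed by 2.65 on the log2 scale (SE 0.35, edgeR adjusted p = 3.02e-10): it had 5361 CPM in PP cells of that library against 305 CPM at month 2 with implants, and 2844 against 1038 CPM in alpha cells of the same libraries. Gcg differed by 2.29 (SE 0.24, adjusted p = 5.17e-18), but the rule that chose the cells used it, so this value is a description. Pyy, whose product peptide YY is shared by PP and alpha cells, differed by -1.51 (SE 0.24, edgeR adjusted p = 8.07e-07): it had 63910 against 86550 CPM in PP cells and 20940 against 10170 CPM in alpha cells. Higd1a, a mitochondrial protein induced by low oxygen, differed by -4.80 (SE 0.87, edgeR adjusted p = 1.01e-04), with 6.12 against 99.5 CPM in PP cells and 521 against 305 CPM in alpha cells, and 4 and 45 UMIs behind the PP values. In Prss2-rich cells Gcg had 7117 and 6123 CPM without implants against 3808 CPM at month 2 with them, and Iapp 2833 and 3860 against 680 CPM. The part of RNA from other cells in the Gcg and Iapp differences was not tested.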

How the results depend on the processing

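Of the values for single genes named in the text, 550 of 593 in alpha cells, 86 of 114 in delta cells and 362 of 460 in PP cells kept their direction and their side of the threshold. A gene that was not called and stayed so counts as kept. In alpha cells 30 genes were counted and 6 called in all, so the share there says little about the calls. Values in which a called gene lost its call numbered 21 in alpha, 28 in delta and 37 in PP cells. Reversals were found for Mlxipl in alpha cells (log2 fold change -1.104 with the hormone at least 10 times the others) and Rheb in alpha cells (-0.021 without the first and 1.038 without the second library lacking implants), neither of which was called. The causes of the changes below were not tested.

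In alpha cells at month 2, 6 genes were called in the main analysis, 1 with DESeq2, 2 with the month 2 libraries alone, 10 with at least 10 cells, 32 with the hormone at least 10 times the others, 18 with no Prss2 limit and 3 to 27 when each replicate was left out. After the data were seen, 10 were called with adult libraries only and 36 with cells of high Ins2 left out. Against the 3 implanted libraries the count of 1 became 8 with DESeq2, 28 with no low-count filter, 0 with thinned cells, 29 with the stricter hormone ratio, 0 with no Prss2 limit, 16 with all libraries and 0 to 6 when each replicate was left out. In PP cells at month 2, 26 became 1 with DESeq2, 41 with no low-count filter, 8 with thinned cells, 46 with no Prss2 limit, 11 with at least 1 cell and 21 to 224 when each replicate was left out. Against the 3 implanted libraries 32 became 49 with no low-count filter, 0 with no Prss2 limit, 0 with at least 1 cell and 58 to 102 when each implanted library was left out.

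In delta cells 10 became 20 with DESeq2's size factors, 1 with DESeq2, 5 with the month 2 libraries alone, 18 with the hormone genes left out, 20 with the stricter hormone ratio, 25 with no Prss2 limit and 2 to 28 when each replicate was left out. With the stricter ratio the first library without implants kept 1 delta cell and the second 0. The difference between delta and alpha cells gave 0 to 1 calls when each replicate was left out. That between PP and alpha cells gave 4 calls, 0 with DESeq2, 7 with at least 1 cell and 4 to 6 when each replicate was left out. The PP share differed by -16.8 points with the stricter hormone ratio. Differences of shares ran from 20.6 to 26.5 points for alpha, -15.0 to -9.94 for delta and -12.3 to -5.98 for PP cells when each replicate was left out.

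The labels give each replicate number as a batch. Same-numbered libraries did not deviate together (correlations -0.017 to 0.088 over genes in alpha cells), so the numbers were not taken to pair the libraries. With the replicate block 15 genes were called in alpha, 40 in PP and 23 in delta cells.

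The planned delta cell fits could not be made at 5 cells per library, and PP fits with the month 2 libraries alone, with at least 10 cells, with the stricter hormone ratio or without the first library lacking implants were not run for lack of libraries. Depth limits delta and PP cells most: 1 delta cell and 4 PP cells stand behind the second library without implants.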
